A study of Mus musculus with 2 samples.

Results

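The basement membrane genes described here encode the chains of the first embryonic laminin trimer (Lama1, Lamb1 and Lamc1), the chains of the widespread collagen IV trimer (Col4a1 and Col4a2), and the proteins that join or decorate both networks (Nid1, Nid2, Hspg2, Agrn and Sparc). They were chosen by name, and every gene probe whose RefSeq accession maps to one of these symbols was taken. This gave 15 probes for 10 genes, of 20823 genes that could be named on the arrays. All 15 probes were well above background on both arrays, so all 10 genes belong to the 16608 genes measured in both conditions.

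RNA came from mouse embryonic stem (ES) cells that the study derived from E14 cells as a Tet-inducible Baf53a conditional knockout (cKO) clone. CRISPR/Cas9 had mutated both Baf53a alleles of this clone, and a Cas9-resistant Baf53a, expressed only without tetracycline (Tet), supplied Baf53a. The cells were transfected with a vector for Myc-tagged Baf53a or for Myc-tagged Baf53b, given 48 h, and then kept for 6 days in medium holding Tet at 1 μg/mL, so that all cells of both conditions carried the mutated alleles and were treated with Tet, with serum and leukemia inhibitory factor. The Baf53a-expressing and the Baf53b-expressing cells gave 1 array each, on the same slide. Baf53a and Baf53b are actin-related subunits of the Baf chromatin-remodeling complex, and the comparison asks how ES cells that live on one differ from those that live on the other. Each condition is 1 RNA sample of 1 clone, so a difference due to the Baf53 form cannot be told apart from one between any pair of cultures. The design allows no test, and differences are given without p-values. In bulk RNA, fewer cells of a type and less RNA per cell cannot be told apart.

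The labels were checked first. The probe of Actl6b, the gene of Baf53b, did not stand well above background in the Baf53a-expressing sample, and the signal of the Baf53b-expressing sample exceeded it at least 14.5-fold, a bound set against the lowest signal well above background. The probe of Actl6a, the gene of Baf53a, gave a log2 level of 1.71 in Baf53a- and 1.67 in Baf53b-expressing cells. Whether these probes also detect the vectors was not tested.

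Basement membranes are sheets of matrix under epithelia. Laminin trimers bind cell surface receptors and polymerize into a first network, collagen IV forms a second, covalently linked network, and nidogens and the heparan sulfate proteoglycans perlecan (Hspg2) and agrin connect them. In the early mouse embryo the primitive endoderm and its parietal derivative secrete these proteins in large amounts, and embryonic stem cells make laminin as well.

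Promoter windows from RefSeq on GRCm38.p6, from 250 bases before to 50 bases after the annotated start, were given for 7 of the 10 genes, as 8 windows, of which Agrn has 2. Lama1, Lamc1 and Nid2 are without one here. Stretches of the windows are shown because the genes of the collagen IV chains start back to back and because the windows differ in the boxes they hold. Capitals mark a GC box (GGGCGG, or CCGCCC on the other strand) or a CCAAT box (CCAAT, or ATTGG on the other strand). Col4a1 and Col4a2 lie head to head on opposite strands, with annotated starts whose transcripts overlap by 22 bases. The stretch of the Col4a2 window shown lies downstream of the Col4a1 start, within the Col4a1 gene, and its CCAAT box is not the one counted for Col4a1. Stretches are written 5′ to 3′ on the strand named:

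Col4a2, plus strand, chr8:11312771-11312800: ccCCAATttgttggcgctgccccctcccct

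Lamb1, plus strand, chr12:31265205-31265234: tcctCCGCCCcctCCGCCCccgctctccat

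Nid1, plus strand, chr13:13437502-13437601: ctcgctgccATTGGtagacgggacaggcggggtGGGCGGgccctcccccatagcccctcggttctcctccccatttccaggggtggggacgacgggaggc

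Sparc, minus strand, chr11:55420081-55420180: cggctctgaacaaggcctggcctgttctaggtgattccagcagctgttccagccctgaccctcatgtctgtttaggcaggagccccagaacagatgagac

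On either strand, a GC box stood in a window of 6 of the 7 genes, all but Sparc, and in 35.7% of all 32851 RefSeq windows of 300 bases. The Agrn windows held 12 and 2 GC boxes, that of Hspg2 5, that of Col4a2 3, that of Lamb1 2, and those of Col4a1 and Nid1 1 each. A CCAAT box stood in the windows of 4 genes (Lamb1, Col4a1, Col4a2 and Nid1) and in 37.4% of all windows. The letters GATAA, the core of GATA factor sites, and ATTGT, the core of SOX factor sites, were in 25.4% and 31% of all windows and in none of the 8. The windows were rich in G and C, from 55.3% for Sparc to 83.3% for the first of Agrn, against a median of 52.7% over all windows. A match of letters describes a window and is not a binding site, and no match says nothing of a factor.

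In the text below, a signal is the processed brightness of a probe. A log2 level is log2 of that signal with the 75th percentile of the array, a signal of 1161 in Baf53a- and 1128 in Baf53b-expressing cells, set to 0. A difference is Baf53b- minus Baf53a-expressing cells on this scale. The gene value is the mean over its probes. Each probe has its own efficiency, so levels are compared between arrays and not between probes. A summed level of a list adds unlogged levels over its genes, so it mostly follows the brightest probes and is compared between arrays only. Naming the brightest probe of a list ranks no gene by expression. The error printed beside a difference is the spot SD, that of a difference between 2 single spots, taken from probes printed 10 times and of like brightness, with all probes put into 5 groups of equal size by brightness.

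All 10 genes had a difference above 0, from 0.01 for Sparc to 0.31 for Col4a2, with a median of 0.14 (0.0845 with arrays centred on the median and 0.0907 on the brightest probe of each gene), although Lamc1 (-0.0032) and Sparc (-0.04) turned below 0 with that centring. Over all genes measured 49.1% were above 0, with a median of -0.0032. In Baf53b-expressing cells Lama1, Lamb1 and Col4a2 were higher by at least 1.2-fold, which is 0.26 on the log2 scale, and 0 of the 10 genes were lower by that much. The same held for 8.47% of all genes in the higher and 3.41% in the lower direction, a split that became 5.55% against 5.41% after quantile normalization and 5.89% against 5.92% after centring on the median. The count of members at least 1.2-fold higher was 0 with arrays centred on the median, which lowers every difference by the same amount. It was 4 under cyclic loess, against 6.03% of all genes, and 2 under normexp, against 2.91%. Lamb1 was the member just inside 1.2-fold, at 0.28, and Col4a1 the one just outside, at 0.23. No member differed by 2-fold, a size that 0.102% of all genes reached in the higher and 0.0903% in the lower direction.

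**Figure D1:**
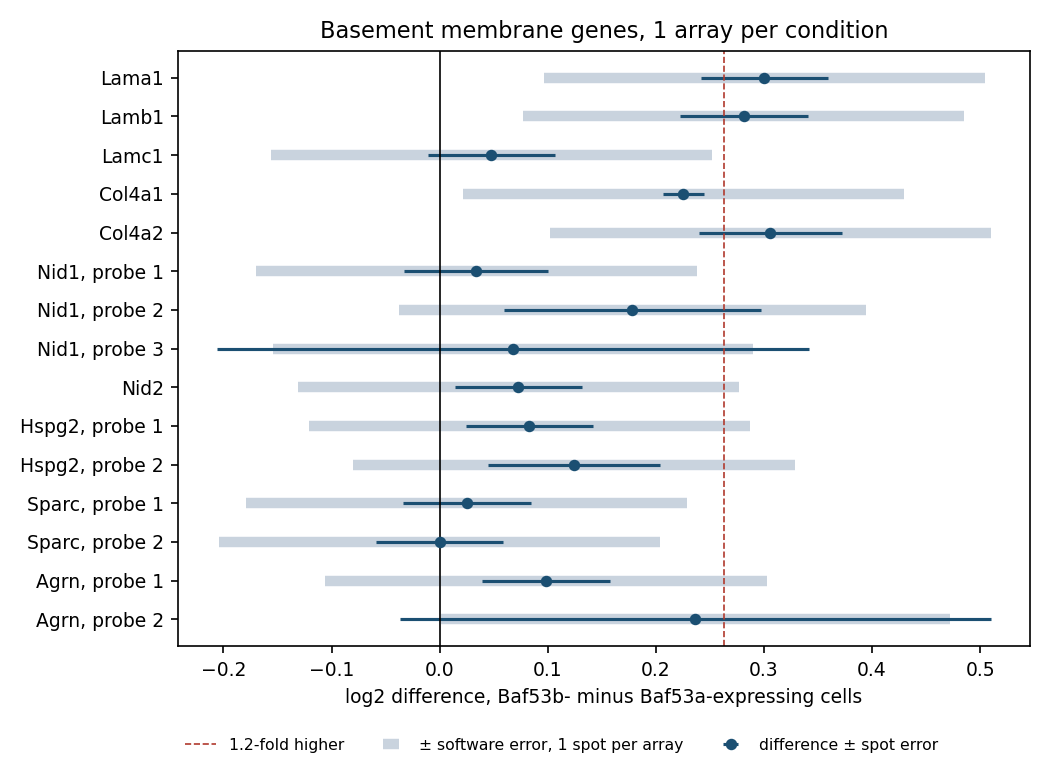
Log2 difference of each of the 15 probes, Baf53b- minus Baf53a-expressing cells, with probes of a gene numbered from the brightest. Dark bars are the spot error, which is the SD of a difference between 2 single spots among probes of like brightness, or for Col4a1 the standard error over its spots, and light bars the error given by the scanner software. Lama1, Lamb1, Col4a1 and Col4a2 lie from 0.23 to 0.31, and Lamc1 and Sparc near 0.

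Of the laminin chains, Lama1 and Lamb1 were higher in Baf53b-expressing cells and Lamc1 was nearly level. Lama1, the alpha chain that brings receptor binding to the trimer, had a signal of 22007 in Baf53a- and 26327 in Baf53b-expressing cells, log2 levels of 4.24 and 4.54. Its difference was 0.30, or 1.23-fold. Lamb1, the beta chain, had signals of 10655 and 12580 and a difference of 0.28, or 1.22-fold. Lamc1, the gamma chain, which most laminin trimers share, had signals of 34539 and 34681 and a difference of 0.05. Each chain had 1 probe and 1 spot per array. The difference of Lama1 exceeded that of Lamc1 by 0.25 and that of Lamb1 exceeded it by 0.23, against a spot SD of 0.0834 for such a comparison. The error model of the scanner software gives 0.289 for the same comparison, which is larger than either value. Lama1 and Lamb1 themselves differed from each other by 0.02, within either error.

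Both collagen IV chains had higher values in Baf53b-expressing cells. Col4a2 had a signal of 2510 in Baf53a- and 3014 in Baf53b-expressing cells, log2 levels of 1.11 and 1.42, a difference of 0.31 or 1.24-fold. Col4a1, the chain that enters each trimer in a pair, had mean signals of 3342 and 3796, log2 levels of 1.53 and 1.75, a difference of 0.23 or 1.17-fold. Col4a2 exceeded Col4a1 by 0.08, against a spot error of 0.0692, with the standard error over its spots taken for Col4a1, and a software error of 0.289. Col4a1 was the member whose probe was printed as 10 spots on each array. The 9 spots used on the array of Baf53a-expressing cells, after 1 outlier was left out, had log2 levels from 1.48 to 1.59 with a median of 1.52. The 10 spots on the array of Baf53b-expressing cells ran from 1.66 to 1.84 with a median of 1.75. All 10 lay above the highest of the 9, and the spot SD was 0.0343 and 0.0488. The spots of an array share 1 labelled RNA, so they show how well the array was read and are not replicates of a condition.

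**Figure D2:**
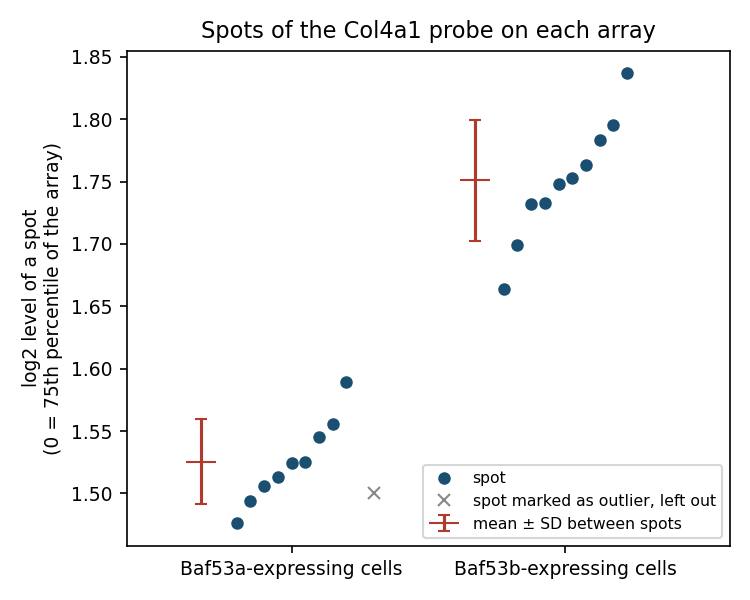
Log2 level of every spot of the Col4a1 probe on each array, drawn in order of level, with the mean and SD between spots. The spots of Baf53b-expressing cells, from 1.66 to 1.84, lie above those of Baf53a-expressing cells, from 1.48 to 1.59; the cross is the spot left out.

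The nidogens, which tie laminin to collagen IV, were near 0. Nid2 had signals of 5037 and 5146 and a difference of 0.07 (0.02 with arrays centred on the median and 0.12 under quantile normalization). Of the 3 Nid1 probes, the brightest had signals of 3418 and 3399 and a difference of 0.03. The others were dim, with signals from 46.4 to 68.0, and differed by 0.18 and 0.07. The gene value of Nid1, 0.09, was 0.04 with arrays centred on the median. Nid1 minus Nid2, taken on the brightest probes, was -0.04, against a spot SD of 0.0889.

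The proteoglycans were slightly above 0. The bright probe of Hspg2, which encodes perlecan, had signals of 11288 and 11613 and a difference of 0.08, and its dim probe, at 220 and 233, differed by 0.12. The gene value of Hspg2, 0.10, was 0.05 with arrays centred on the median. The bright probe of Agrn, which encodes agrin, had signals of 11687 and 12154 and a difference of 0.10. The dim Agrn probe, at 34.6 and 39.6, differed by 0.24, within the spot SD of 0.274 among the dimmest of 5 groups of probes.

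Sparc encodes a collagen-binding protein that is released by parietal endoderm. Its brightest probe had signals of 192591 and 190372, log2 levels of 7.37 and 7.40, and a difference of 0.03. The other Sparc probe had signals of 5588 and 5427 and a difference of -0.00011. Neither Sparc probe differed by more than the spot SD of its brightness group, 0.0590.

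Differences depended on brightness over the whole array. From the dimmest to the brightest of the 5 groups of the 29247 probes measured on both arrays, the median difference was 0.10, 0.05, 0.02, -0.02 and -0.06. The 15 member probes lay mostly on the bright side, 8 in the brightest group and 3 in the group below it. In the brightest group, where 24.2% of the probes were above 0, 7 of the 8 member probes were above 0 and all 8 were above the median of the group. Lama1 and Lamb1 were at least 1.2-fold higher there, against 1.76% of the probes of that group. In the second brightest group Col4a2 was at least 1.2-fold higher, against 2.82% of its probes. In the brightest group 1.11% of the probes had a difference at least as high as Lama1, 1.45% as Lamb1 and 13.5% as Lamc1. In the second brightest group the shares were 1.78% for Col4a2 and 3.69% for Col4a1. In units of the spot SD, the difference was 5.09 for Lama1, 4.77 for Lamb1, 4.60 for Col4a2 and 0.811 for Lamc1. The error model of the scanner software gives 0.204 for each of these differences, much larger than the spot SD. The Col4a1 value, a mean over 9 and 10 spots, had a standard error of 0.0192 between spots. Spot error leaves out the noise of culture, labelling and hybridisation. The SD of all differences in the brightest group, which holds these and any biological differences, was 0.108.

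**Figure D3:**
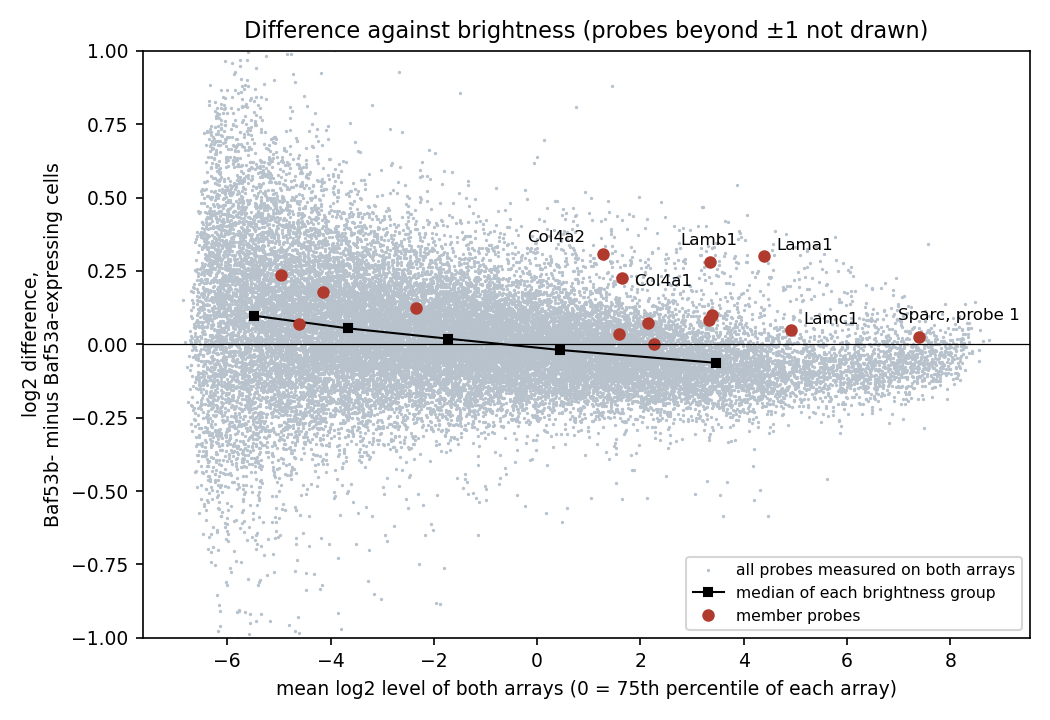
Log2 difference of every probe measured on both arrays against its mean log2 level, with the median of each brightness group and the 15 member probes. The medians run from 0.10 to -0.06, and Lama1, Lamb1, Col4a1 and Col4a2 stand above the bulk of probes of like brightness, while Lamc1 and the brightest Sparc probe lie nearer to it.

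Under each of the 4 other scalings, the highest differences again belonged to Lama1, Lamb1, Col4a2 and Col4a1. Quantile normalization gave 0.36 for Lama1, 0.34 for Lamb1, 0.33 for Col4a2 and 0.26 for Col4a1. Centring on the median gave 0.25, 0.23, 0.25 and 0.17 for the same genes. Lamc1 lay between -0.0032 and 0.11 over the scalings.

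**Figure D4:**
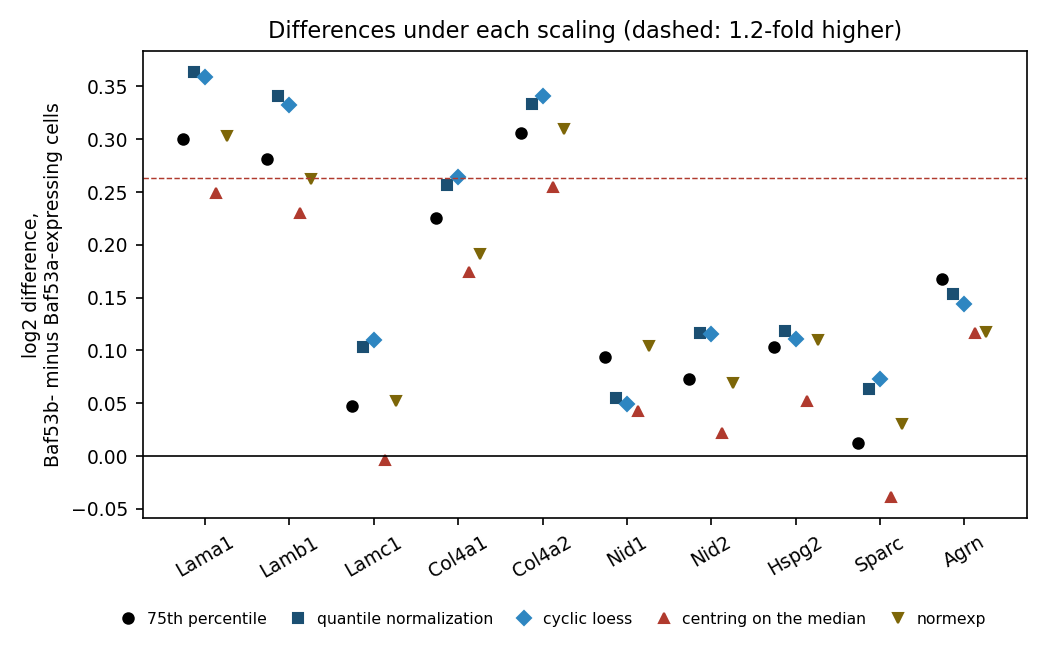
Log2 difference of each gene, Baf53b- minus Baf53a-expressing cells, with the arrays scaled on the 75th percentile and by 4 alternatives. Centring on the median puts every gene under 1.2-fold and turns Lamc1 and Sparc below 0, and in each scaling Lama1, Lamb1, Col4a1 and Col4a2 are the highest.

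Around these 10 genes, 8 lists of related genes gave 76 genes measured on both arrays. Of these, 8 reached 1.2-fold in the higher and 3 in the lower direction, against 8.47% and 3.41% of all genes, and 0 differed by 2-fold, with a median of 0.01. Quantile normalization gave 8 higher genes of 76, against 5.55% of all genes, cyclic loess also 8, against 6.03%, normexp 6, against 2.91%, and centring on the median 5, against 5.89%. Among the other laminin chains 2 of 8 were at least 1.2-fold higher, among them Lamb3 (0.33), a chain of epithelial laminin, and Lamc3 was lower by 1.2-fold (-0.27, at signals of 31.0 and 25.0). Lama4, a chain of vessel wall laminins, had the smallest difference, 0.06. The list's median was 0.08 (0.03 with arrays centred on the median and 0.15 under a stricter filter), and the number higher by 1.2-fold was 1 with arrays centred on the median and under normexp. The number lower by 1.2-fold was 0 under normexp and 0 of the 6 chains left by the stricter filter. None of the 3 other collagen IV chains measured passed 1.2-fold, with a median of -0.14, which was 0.0089 under normexp. Without the filter on dim probes the median over 4 chains was 0.24, with 2 at least 1.2-fold higher, against 12.5% of all genes. That setting takes in probes not well above background, and the direction of this list is not settled. Col4a5 had the smallest difference (-0.08), and Col4a3 was not well above background on either array.

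Of 14 other basement membrane proteins measured, 4 reached 1.2-fold in the higher and 1 in the lower direction, against 8.47% and 3.41% of all genes, with a median of 0.09. The median was 0.04 with arrays centred on the median, and the number higher was 2 under normexp, against 2.91%. The higher ones were Frem1 (0.39, at dim signals of 28.0 and 35.6), a protein of the Fraser complex that anchors epidermis, Tinagl1 (0.38), and the Sparc-related proteins Smoc1 (0.36) and Smoc2 (0.31). The lower one was Papln, which encodes papilin (-0.46, with signals of 701 and 471 for its brightest probe). Npnt, an integrin ligand, had the smallest difference, -0.01, the mean of 2 dim probes at -0.23 and 0.21. Col15a1 stood well above background on the array of Baf53a-expressing cells alone, where it was at least 1.52-fold higher. Hmcn1 did so on that of Baf53b-expressing cells alone. It was 1.36-fold higher there, at dim signals of 9.08 in Baf53a- and 12.0 in Baf53b-expressing cells, both near the lowest signals well above background. Ntn4 and Egflam were not well above background on either array, and no probe was matched to Hmcn2.

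On the 75th percentile scale no gene of the receptors or of the machinery that makes the matrix was past 1.2-fold. The lists held 12 receptor genes (median 0.03, which was -0.02 with arrays centred on the median), 15 genes of collagen folding and export (median 0.01, -0.04 with that centring) and 9 genes of heparan sulfate synthesis (median -0.04, from -0.01 under normexp to -0.09 with that centring). In other scalings collagen folding and export had 1 gene higher and 1 lower by 1.2-fold under quantile normalization (5.55% and 5.41% of all genes) and cyclic loess (6.03% and 5.11%). That list had 1 lower with arrays centred on the median (5.92%) and 1 higher under normexp (2.91%), and the receptors had 1 higher under normexp. The genes with the smallest differences in these lists were the laminin receptor Bcam (-0.01), Crtap (-0.0081), a partner of collagen prolyl 3-hydroxylase, and Ext1 (0.01), a heparan sulfate polymerase. Itga2 was not well above background on either array. Of 11 genes of matrix remodelling, the proteases Adamts9 (0.32) and Plau (0.28, at dim signals of 28.0 and 32.9) were at least 1.2-fold higher, against 8.47% of all genes, and none was lower by 1.2-fold. The other scalings left 1 gene each, against 2.91% to 6.03% of all genes. The median was 0.13 (0.06 under quantile normalization, 0.05 under cyclic loess, 0.07 with arrays centred on the median and 0.19 with outlier spots kept), and Loxl2 was nearest 0 (-0.03). The relatives of Sparc went both ways. Smoc1 and Smoc2, named above, were higher, while a list of 4 others measured, Sparcl1, Spock1, Spock2 and Fstl1, was below 0 throughout in every scaling run, with a median of -0.20 that was -0.10 under normexp. Sparcl1 was lower by 1.2-fold (-0.27), a count of 1, against 3.41% of all genes. The count became 2 under quantile normalization (5.41% of all genes), cyclic loess (5.11%) and centring on the median (5.92%), and 0 under normexp (0.692%). Spock2 had the smallest difference (-0.11), and Spock3 was not well above background on either array.

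**Figure D5:**
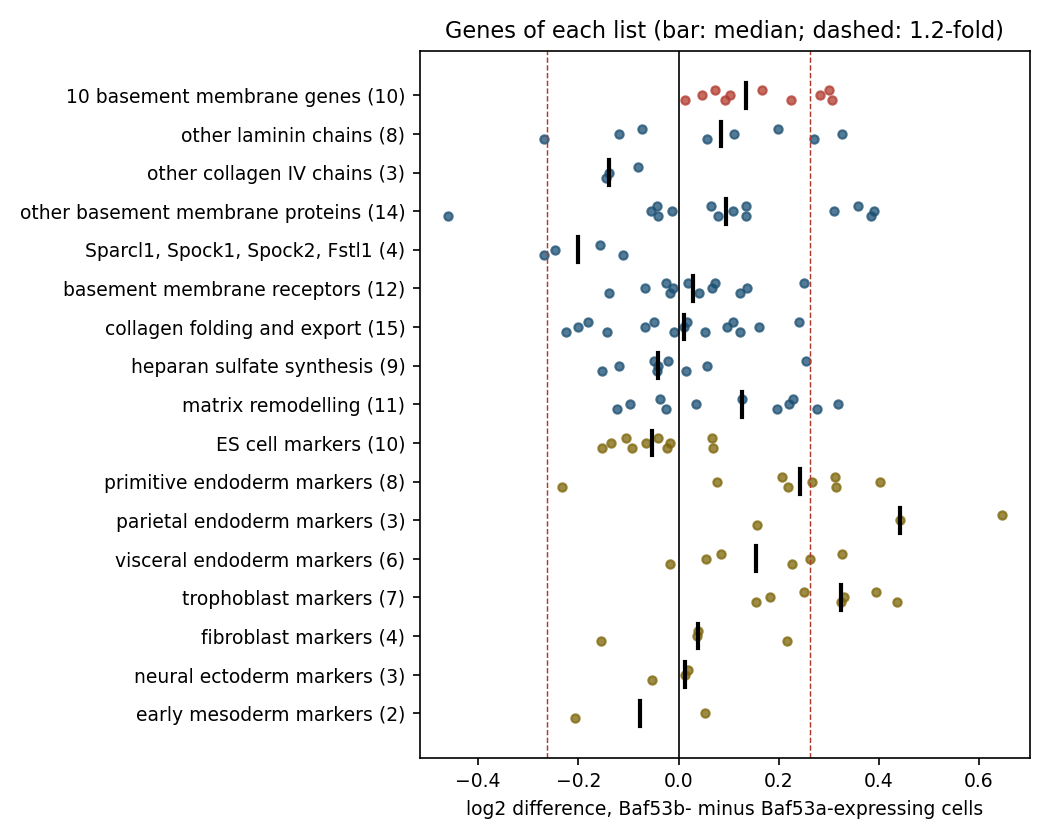
Log2 difference of each gene measured on both arrays, by list, with the number of genes in brackets, the median as a bar and 1.2-fold as dashed lines. The 10 basement membrane genes have a median of 0.14, the list of Sparcl1, Spock1, Spock2 and Fstl1 -0.20, and the marker lists of primitive and parietal endoderm 0.24 and 0.44.

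Markers of cell types that make basement membrane were read beside these values. The ES cell label held, with all 10 ES cell markers measured, 0 past 1.2-fold and a median of -0.05, beside -0.06 for all probes of the brightest group. The median was -0.01 under quantile normalization, cyclic loess and normexp and -0.10 with arrays centred on the median. The largest differences were those of Esrrb (-0.15), Pou5f1 (-0.13) and Zfp42 (-0.11). The summed level of the list, in units of the 75th percentile, was 192.4 for Baf53a-expressing and 179.7 for Baf53b-expressing cells. Zfp42 had the brightest probe.

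Of 8 primitive endoderm markers, all measured, 4 reached 1.2-fold in the higher and 0 in the lower direction, against 8.47% and 3.41% of all genes, with a median of 0.24. The counts were 3 and 1 under quantile normalization and cyclic loess, where 5.55% and 6.03% of all genes were higher, 2 and 1 with arrays centred on the median (5.89%), and 1 and 0 under normexp (2.91%). The largest differences were those of Dab2 (0.40), Pdgfra (0.32) and Foxa2 (0.31). Of the 8, 7 were above 0, against 49.1% of all genes. In the 3 dimmest of the 5 brightness groups, from the dimmest up, 64.6%, 61.4% and 55.5% of probes were above 0. The summed level of the primitive endoderm markers was 1.99 and 2.35 in the same order, a ratio of 1.18, and Gata6, a transcription factor that defines this lineage, had the brightest probe, with signals of 861 and 966. All 3 parietal endoderm markers were above 0, against the same shares, Thbd by 0.65 (at dim signals of 19.1 and 29.0), Plat by 0.44 and Pth1r by 0.16. Their summed level was 0.623 and 0.740, and Pth1r had the brightest probe. Of 8 visceral endoderm markers 6 were measured, and Lrp2 was at least 1.2-fold higher (0.33), against 8.47% of all genes, followed by Afp (0.26), which lay at the threshold and passed it in the authors' value table, and Cubn (0.23). Their summed level was 3.40 and 3.89, Lrp2 had the brightest probe, and Ttr and Apoa1, which define mature visceral endoderm, were not well above background on either array.

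Trophoblast markers stood higher too. Of 8, 7 were measured, all above 0, against 49.1% of all genes, with a median of 0.32, and 4 were at least 1.2-fold higher, against 8.47%. By brightness group, the share of probes above 0 ran from 64.6% in the dimmest to 24.2% in the brightest. The largest differences were those of Krt8 (0.44), Krt7 (0.39) and Gata3 (0.33). The summed level was 38.1 and 47.9, most of it from Krt18, a keratin that simple epithelia share, which had the brightest probe (log2 levels of 5.07 and 5.39). Elf5 was not well above background on either array. The endoderm and trophoblast lists were thus higher on the same array as Lama1, Lamb1, Col4a1 and Col4a2, with medians above 0 in every scaling run, and their part in the result was not tested.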

How the data were processed

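Cy3-labelled cRNA of 2 samples was hybridised to 1-colour Agilent mouse arrays. The authors extracted the scans with Agilent Feature Extraction 11.0.1.1 and deposited, per spot, the processed intensity with background subtracted, its error and flags. The deposited value table holds a ratio per probe, the processed signal divided by 1 number per array (1160 and 1126), within 0.1% for 100% of the values. Here outlier spots were left out, log2 intensity was averaged per probe, and each array's 75th percentile was subtracted. A probe was well above background where at least 50% of its spots had that flag, which held for 75.2% and 76.4% of 39429 probes. Probes were named by RefSeq accession on GRCm38.p6, for names only. The spot SD came from 324 probes printed 10 times, with at least 5 spots left. For probes well above background on 1 array, a lower bound is given. Where the other signal exceeded that array's lowest signal well above background, the observed fold is given instead. The members, lists, thresholds and the rule for named genes were chosen with earlier results of these data known. That rule took all members, the genes of each related list at least 1.2-fold apart with the one nearest 0, and the 3 cell type markers of each list with the largest differences. Alternatives were quantile normalization, cyclic loess, median centring, normexp (offset 50, on median signals), no filter and a stricter filter (above each array's median), outlier spots kept, the value table and the brightest probe of a gene. Some genes that this rule takes are not reported here. Only the centring and the 1.2-fold call were tested on simulated probes. These were bright, shifted by more than any member differed and without a trend with brightness. That test does not show that differences as small as those of the members would be found. Python 3.11.15 (numpy 2.4.6, pandas 2.3.3, matplotlib 3.10.9) and R 4.3.3 with limma 3.58.1 were used.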

Additional observations from a re-analysis of the deposited data

How the results depend on the processing

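No paired analysis was possible because each condition had a lone array, which also left no replicate to leave out. Over 9 alternatives, 88 of 90 single-gene values of the 10 basement membrane genes were above 0, and 79 moved by less than the spot error of that gene's difference. Centring on the median gave 0 of these genes at least 1.2-fold higher (5.89% of all genes), against 3 (8.47%), since it lowers every difference alike. Of the 76 related genes, the number at least 1.2-fold higher became 5 with that centring, against 8. The number at least 1.2-fold lower, 3 (3.41% of all genes), became 5 under quantile normalization (5.41%), centring on the median (5.92%) and cyclic loess (5.11%). It was 6 without the filter on dim probes (6.22%), and 1 under normexp (0.692%) and under the stricter filter (1.63%). The filters change which genes are counted (83 and 60), and for the rest the cause was not tested. Low signal limits the dim probes: the lowest signal well above background was 8.45 in Baf53a- and 9.75 in Baf53b-expressing cells.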

Other observations

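The 4 fibroblast markers measured, of 7 listed, had a median difference of 0.04, with 0 past 1.2-fold. Col1a2, a chain of the interstitial collagen I, differed by 0.22, Thy1 by -0.15 and Twist1 by 0.04. Postn and Prrx1 were not well above background on either array. Col3a1 stood well above background on the array of Baf53b-expressing cells alone. It was 1.33-fold higher there, at signals of 8.73 in Baf53a- and 11.3 in Baf53b-expressing cells, both near the lowest signals well above background. The summed level of the list was 1.30 in Baf53a- and 1.25 in Baf53b-expressing cells, with the probe of Thy1 brightest.

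The neural ectoderm markers Nes (-0.05), Sox1 (0.02) and Pax6 (0.01) had a median of 0.01 and a summed level of 1.08 and 1.05, with the probe of Nes brightest. Of the early mesoderm markers, Mesp1 differed by -0.21 and Kdr by 0.05, with probes of Kdr at -0.18 and 0.29. Mixl1 was not well above background on either array, and the summed level was 0.933 and 0.963, with a probe of Kdr brightest. The medians of these fibroblast, neural and mesoderm lists changed sign between settings.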
